A study of Mus musculus with 16 samples.

Results

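Clec4e, Clec4d, Clec4n, Clec7a, Clec4a2, Clec12a and Clec5a encode C-type lectin receptors with which myeloid cells sense fungi, mycobacteria, viruses and damaged cells. They were taken by symbol as 7 rows of the 24001 gene rows in the expression table. All 7 reached at least 1 FPKM (mapped fragments scaled for library size and transcript length) in at least 2 libraries, the minimum for testing. RNA-seq was run on dendritic cells cultured from NZM2410 bone marrow, a mouse strain prone to lupus, in 20 ng/ml GM-CSF with 10 ng/ml IL-4 until day 7. Cells received loxoribine and CpG (1 μg/ml), agonists of TLR7 and TLR9, or vehicle for 24 h. For loxoribine the labels state 200 μmol/ml, and whether that unit is right was not checked.

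The 16 libraries fell into 8 groups of 2, an agonist and a vehicle group in each of 4 arms that differ in estrogen receptor α (ERα, encoded by Esr1). Ex3a OVX cells came from ERα null mice and ERKO OVX cells from mice with a truncated receptor (ERα short). Both OVX arms came from mice ovariectomized at 4 to 8 weeks of age and given a 0.25 mg 17β-estradiol pellet that releases over 90 days. KO cells came from unoperated ERα short mice and WT cells from unoperated mice with the wild-type receptor. These assignments follow the source labels. The genotype labels go against them, with null for ERKO OVX vehicle and KO vehicle cells and short for both Ex3a OVX groups, so the allele of an arm is uncertain. The OVX libraries carry their own run of library numbers, so surgery, estradiol pellet and library set cannot be told apart in any comparison of an OVX arm with an unoperated one. Whether the 2 libraries of a group are separate mice or cultures is not stated, so all p-values here reflect spread between libraries that may be only technical.

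Most of these receptors signal through short activation motifs. Clec4e (Mincle, a receptor for mycobacterial cord factor), Clec4d (MCL, its partner in a heterodimer) and Clec4n (Dectin-2, which binds fungal mannans) lack such a motif and pair with the FcRγ adaptor encoded by Fcer1g. Clec7a (Dectin-1, the receptor for fungal β-glucans) carries its own motif, and Clec5a (MDL-1, known in human cells as a dengue virus receptor) pairs with the DAP12 adaptor encoded by Tyrobp. All of these engage the kinase Syk and, through Card9, Bcl10 and Malt1, NF-κB. Clec4a2 (DCIR) and Clec12a (MICL, which binds uric acid crystals) carry inhibitory motifs that recruit the phosphatases encoded by Ptpn6 and Ptpn11.

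All 7 genes lie on mouse chromosome 6 in GRCm38.p6, the build that mm10 names. Clec4n, Clec4d and Clec4e are neighbours, with 15.1 kb between Clec4n and Clec4d and 6.52 kb between Clec4d and Clec4e. Clec12a and Clec7a are 96.3 kb apart. No exon of the 7 overlaps an exon of another annotated gene. Of the 50-base stretches in Clec4a2 transcripts, 6.83% also occur in transcripts of other genes, with Clec4a4 and Clec4b1 sharing the most. Reads could be split among such genes, and the Clec4a2 level is uncertain to that extent. The share was 0.686% for Clec4n and 0.457% for Clec12a, and 0 for the other 4 genes.

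The 250 bases before the transcription start are shown for Clec4e and Clec4d, neighbours read from opposite strands, and for Clec7a, which went the other way after the agonists. They are from RefSeq (GRCm38.p6), at chr6:123289872-123290121 on the minus strand, chr6:123261857-123262106 on the plus strand and chr6:129472786-129473035 on the minus strand. Capitals mark GAGGAA or its reverse complement, a core bound by PU.1 and other ETS factors of myeloid cells.
Clec4e: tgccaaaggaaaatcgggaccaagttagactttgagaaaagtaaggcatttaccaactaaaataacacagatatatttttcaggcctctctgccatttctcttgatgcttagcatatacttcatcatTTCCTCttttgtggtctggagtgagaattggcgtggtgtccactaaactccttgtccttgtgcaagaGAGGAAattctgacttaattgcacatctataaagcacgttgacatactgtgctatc
Clec4d: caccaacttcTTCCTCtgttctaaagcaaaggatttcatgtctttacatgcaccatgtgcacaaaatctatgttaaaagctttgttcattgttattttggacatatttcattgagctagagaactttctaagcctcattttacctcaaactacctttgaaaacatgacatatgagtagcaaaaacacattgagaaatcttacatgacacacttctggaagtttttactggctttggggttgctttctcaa
Clec7a: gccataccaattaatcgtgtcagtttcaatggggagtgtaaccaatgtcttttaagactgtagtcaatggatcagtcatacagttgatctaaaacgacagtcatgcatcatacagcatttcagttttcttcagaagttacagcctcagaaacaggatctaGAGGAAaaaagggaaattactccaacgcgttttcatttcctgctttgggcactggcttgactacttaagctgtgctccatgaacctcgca
Promoter windows, from 250 bases before to 50 bases after the start, were in the sequence table for 6 of the 7 genes (not Clec4n) and were searched on both strands. GAGGAA was in the windows of 5 of the 6 genes, all but Clec4a2, and in 28.3% of 32851 promoter windows. The C/EBP motif TTNNGCAA was in the Clec4e and Clec12a windows and in 10.8% of all windows. The AP-1 motif TGANTCA was in the Clec4a2 and Clec12a windows and in 7.81% of all. The interferon-stimulated response element was in the Clec4d window, where it overlaps a GAGGAA match, and in 3.44% of all. The NF-κB consensus (8.46% of all windows), the palindromic estrogen response element (0.07%) and its core GGTCA (40.5%) were in none of the 6.

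Estimated depth in M fragments was 17.5 to 23.3 per OVX library and 36.1 to 43.1 per unoperated library. The 2 libraries of an OVX group differed by about sampling noise (the ratio of their variance to the sampling variance was 0.986 to 1.52, against 3.46 to 10.7 in unoperated groups) and were averaged and counted as 1 sample. The fit therefore has no spread of its own within the OVX arms, and every SE and p-value of an OVX group rests on the assumption that it varies like the WT and KO groups. Esr1 was low throughout, at 0.364 and 0.317 FPKM (Ex3a OVX agonist), 0.347 and 0.283 FPKM (Ex3a OVX vehicle), 1.12 and 1.16 FPKM (ERKO OVX agonist), 1.02 and 0.982 FPKM (ERKO OVX vehicle), 2.01 and 1.77 FPKM (KO agonist), 2.47 and 2.57 FPKM (KO vehicle), 0.937 and 0.684 FPKM (WT agonist) and 1.21 and 1.38 FPKM (WT vehicle). Gene sums do not show which Esr1 allele is present. The dendritic cell genes Itgax (86.0 to 155 FPKM) and Cd74 (3614 to 8403 FPKM) were high in every library. Other dendritic cell genes, Flt3 (1.12 to 4.01 FPKM) and Xcr1 (0.133 to 0.769 FPKM), were low in every library. Zbtb46 was at 2.65 to 4.69 FPKM in OVX libraries and 13.1 to 27.8 FPKM in unoperated ones. H2-Ab1 went the other way, at 1192 to 1947 FPKM in OVX libraries and 208 to 298 FPKM in unoperated ones. The monocyte gene Ly6c2 was also present, at 2414 to 3689 FPKM in OVX libraries and 142 to 199 FPKM in unoperated ones. In bulk RNA, fewer cells of a type and less RNA per cell cannot be told apart.

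Clec4n was the most abundant of the 7, with a mean of 1930 FPKM over all libraries and rank 25 among the 24001 rows. Clec4d (553 FPKM), Clec4e (361 FPKM) and Clec7a (271 FPKM) followed, then Clec4a2 (70.4 FPKM), Clec5a (29.2 FPKM) and Clec12a (26.2 FPKM). FPKM is per transcript length, so these levels can be compared between genes. Together the 7 made up 0.505% (Ex3a OVX agonist), 0.508% (Ex3a OVX vehicle), 0.68% (ERKO OVX agonist), 0.637% (ERKO OVX vehicle), 0.396% (KO agonist), 0.424% (KO vehicle), 0.665% (WT agonist) and 0.68% (WT vehicle) of the summed FPKM. Clec4n accounted for 47.5% of the 7 in Ex3a OVX agonist cells and 78.2% in WT vehicle cells, the lowest and highest group means. The spread between groups differed by gene. The highest group mean was 24.9 times the lowest for Clec12a, 12.6 times for Clec4e, 5.39 times for Clec4d, 4.27 times for Clec4a2, 3.46 times for Clec7a, 2.07 times for Clec4n and 2.0 times for Clec5a.

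**Figure D1:**
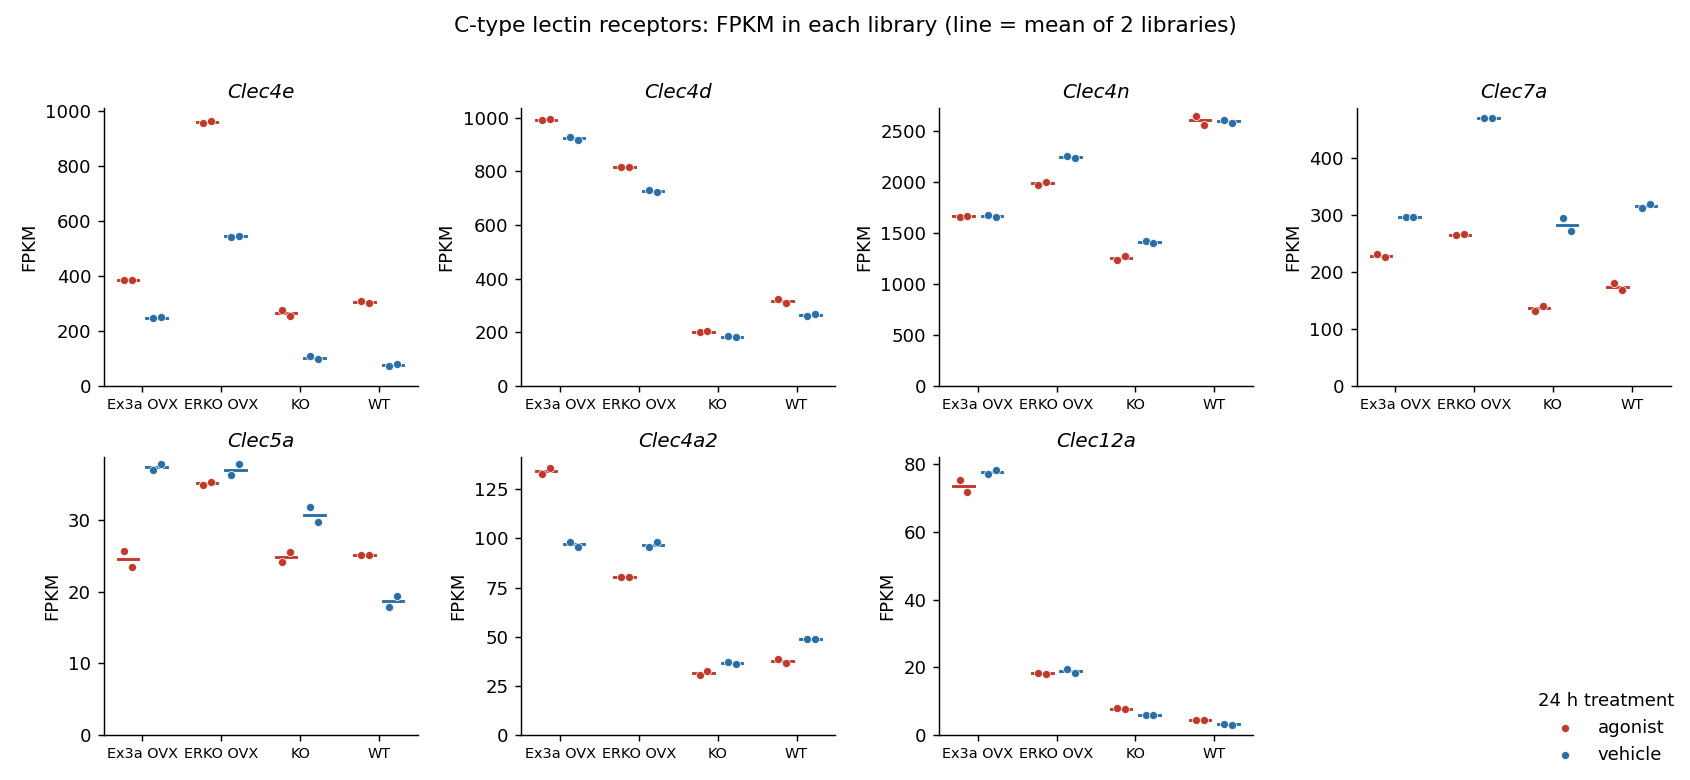
FPKM (y axis, linear, from 0) of the 7 receptors in each of 16 libraries, by arm (x axis) and treatment (red agonist, blue vehicle); points are libraries and bars are means of 2 libraries. Clec4e is highest in the ERKO OVX arm, Clec4d and Clec12a in the Ex3a OVX arm, and Clec4n in the WT arm.

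The first question was how each receptor responded to 24 h of TLR7 and TLR9 agonists in each arm. Of the 7 members, 2 rose and 2 fell in Ex3a OVX cells, 2 rose and 3 fell in ERKO OVX cells, 3 rose and 4 fell in KO cells, and 4 rose and 2 fell in WT cells (limma, Benjamini-Hochberg adjusted p under 0.05). Of all tested genes, 37.3% were called in Ex3a OVX (19.0% higher, 18.3% lower), 37.5% in ERKO OVX (18.3% higher, 19.2% lower), 51.3% in KO (25.9% higher, 25.3% lower) and 57.9% in WT (30.8% higher, 27.1% lower). The median log2 fold change of the 7 was 0.00, -0.08, -0.17 and 0.26 in that order of arms, and that of all tested genes 0.01, 0.00, 0.01 and 0.02.

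Clec4e rose in all 4 arms. It was at 386 and 386 FPKM in Ex3a OVX agonist cells against 247 and 249 FPKM in Ex3a OVX vehicle cells, and at 959 and 966 FPKM in ERKO OVX agonist cells against 543 and 547 FPKM in ERKO OVX vehicle cells. It was at 275 and 256 FPKM in KO agonist cells against 107 and 96.9 FPKM in KO vehicle cells, and at 308 and 299.8 FPKM in WT agonist cells against 73.1 and 79.3 FPKM in WT vehicle cells. No agonist library overlapped a vehicle library of its arm. The log2 fold changes, taken on log2(FPKM + 1), were 0.64 ± 0.07 (SE, adjusted p = 0.000195) in Ex3a OVX, 0.82 ± 0.07 (6.11e-05) in ERKO OVX, 1.38 ± 0.05 (3.71e-08) in KO and 1.98 ± 0.05 (2.24e-09) in WT. Each OVX response sets 1 averaged sample against 1, with its error taken from the spread of the WT and KO groups. Only 0.3% of tested genes had a larger absolute change than Clec4e in WT, and 0.626% in KO. On the log2 scale the rise was smaller in KO than in WT cells, with a difference of -0.61 ± 0.07 (adjusted p = 0.0016). It was also smaller on this scale, though not in FPKM, in ERKO OVX than in KO cells, at -0.56 ± 0.09 (adjusted p = 0.00248). Between Ex3a OVX and ERKO OVX it differed by -0.18 (95% interval -0.42 to 0.05, adjusted p = 0.214), which did not pass the test. It passed at -0.34 with every library scaled to the same FPKM sum (TPM scaling, adjusted p = 0.042) and with all 16 libraries as separate samples (adjusted p = 0.023).

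Clec4d, the partner of Clec4e, moved far less. It was at 990.3 and 995 FPKM in Ex3a OVX agonist cells against 928 and 919 FPKM in Ex3a OVX vehicle cells, a log2 fold change of 0.10 ± 0.04 that did not pass (adjusted p = 0.0696; 0.0483 without either WT agonist library, which changes the shared spread, and 0.00143 with all 16 libraries as separate samples). It rose slightly in ERKO OVX cells, to 815 and 817 FPKM with agonists against 730.2 and 722 FPKM with vehicle (0.17 ± 0.04, adjusted p = 0.00991). In KO cells it was at 199 and 205 FPKM with agonists against 186 and 182 FPKM with vehicle (0.13 ± 0.03, adjusted p = 0.00358). In WT cells it was at 324 and 308 FPKM with agonists against 262 and 267 FPKM with vehicle (0.26 ± 0.03, adjusted p = 3.73e-05). The ratio of Clec4e to Clec4d transcripts was higher with agonists than with vehicle in each arm, at 0.389 against 0.268 in Ex3a OVX, 1.18 against 0.75 in ERKO OVX, 1.32 against 0.552 in KO and 0.962 against 0.288 in WT (means of 2 libraries, not tested as a ratio). The Clec4d response did not pass a test of difference between arms (adjusted p = 0.424 for Ex3a OVX minus ERKO OVX, 0.629 for ERKO OVX minus KO and 0.103 for KO minus WT). For Ex3a OVX minus ERKO OVX it passed with TPM scaling (-0.23, adjusted p = 0.0138, against -0.06), and for KO minus WT with all 16 libraries (-0.12, adjusted p = 0.0237).

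Clec4n, the third receptor that pairs with FcRγ, changed little. It was at 1662 and 1669 FPKM in Ex3a OVX agonist cells against 1675 and 1659 FPKM in Ex3a OVX vehicle cells, and at 2656 and 2564 FPKM in WT agonist cells against 2615 and 2587 FPKM in WT vehicle cells. Agonist and vehicle libraries overlapped in both arms, and neither log2 change passed (0.00, 95% interval -0.08 to 0.07, adjusted p = 0.982, and 0.00, -0.05 to 0.06, adjusted p = 0.877). With TPM scaling the WT change was -0.09 and passed (adjusted p = 0.00924). It fell to 1978 and 1999 FPKM in ERKO OVX agonist cells, against 2259 and 2240.4 FPKM in ERKO OVX vehicle cells, by 0.18 on the log2 scale (adjusted p = 0.00271). With TPM scaling that fall was -0.09 and no longer passed (adjusted p = 0.0529). In KO cells it fell to 1241 and 1280.5 FPKM with agonists, against 1422 and 1406 FPKM with vehicle (-0.17 ± 0.02, adjusted p = 0.000233).

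Clec7a, which signals without an adaptor, fell in all 4 arms. It was at 231 and 226 FPKM in Ex3a OVX agonist cells against 296 and 296 FPKM in Ex3a OVX vehicle cells, and at 265 and 267 FPKM in ERKO OVX agonist cells against 471 and 471 FPKM in ERKO OVX vehicle cells. It was at 132 and 140.1 FPKM in KO agonist cells against 295 and 272 FPKM in KO vehicle cells, and at 180 and 169 FPKM in WT agonist cells against 312 and 319 FPKM in WT vehicle cells. All agonist libraries lay below the vehicle libraries of their arm. The log2 fold changes were -0.37 ± 0.06 in Ex3a OVX (adjusted p = 0.00148), -0.82 ± 0.06 in ERKO OVX (2.35e-05), -1.05 ± 0.04 in KO (5.64e-08) and -0.85 ± 0.04 in WT (1.71e-07). The fall was smaller in Ex3a OVX than in ERKO OVX cells, by 0.45 ± 0.09 (adjusted p = 0.00485). The differences for ERKO OVX minus KO (0.23, adjusted p = 0.0536) and KO minus WT (-0.20, adjusted p = 0.0857) did not pass. With all 16 libraries as separate samples both passed (adjusted p = 0.0029 and 0.0215). ERKO OVX minus KO also passed with TPM scaling (0.33) and median ratio scaling (0.23), so that result lies near the threshold. Without KO vehicle replicate 2 the differences were 0.29 and -0.26. Without KO agonist replicate 2 that for ERKO OVX minus KO was 0.27.

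Clec5a, which pairs with DAP12, went in opposite directions in WT and KO cells. In WT cells it rose to 25.2 and 25.2 FPKM with agonists, against 17.9 and 19.4 FPKM with vehicle (0.41 ± 0.05, adjusted p = 3.29e-05). In KO cells it fell to 24.1 and 25.5 FPKM with agonists, against 31.8 and 29.7 FPKM with vehicle (-0.30 ± 0.05, adjusted p = 0.000363). The 2 responses differed by -0.71 ± 0.06 (adjusted p = 0.000306), and only 0.273% of tested genes had a larger absolute difference. In Ex3a OVX cells Clec5a fell to 25.7 and 23.5 FPKM with agonists, against 37.1 and 37.8 FPKM with vehicle (-0.59 ± 0.06, adjusted p = 0.000119). ERKO OVX cells had 35.0 and 35.3 FPKM with agonists against 36.4 and 37.8 FPKM with vehicle, a log2 change of -0.08 (95% interval -0.22 to 0.07, adjusted p = 0.383). For Ex3a OVX minus ERKO OVX the response differed by -0.51 ± 0.09 (adjusted p = 0.00289).

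Of the 2 inhibitory receptors, Clec4a2 fell with agonists in 3 arms and rose in the fourth. It was at 133 and 136 FPKM in Ex3a OVX agonist cells against 98.2 and 95.9 FPKM in Ex3a OVX vehicle cells, a rise of 0.47 ± 0.05 (adjusted p = 0.00015). It fell to 80.5 and 80.5 FPKM in ERKO OVX agonist cells, against 95.6 and 98.1 FPKM in ERKO OVX vehicle cells (-0.26 ± 0.05, adjusted p = 0.0041). KO cells had 30.3 and 32.6 FPKM with agonists against 36.9 and 36.2 FPKM with vehicle (-0.21 ± 0.04, adjusted p = 0.00112). WT cells had 38.6 and 36.6 FPKM with agonists against 48.9 and 48.8 FPKM with vehicle (-0.37 ± 0.04, adjusted p = 1.89e-05). The Ex3a OVX minus ERKO OVX difference in response was 0.73 ± 0.08 (adjusted p = 0.000205). Clec4a4, a paralog that shares sequence with Clec4a2, averaged 19.8 FPKM in Ex3a OVX agonist cells against 12.9 FPKM in Ex3a OVX vehicle cells. Its Ex3a OVX minus ERKO OVX difference was 0.78 ± 0.14 (adjusted p = 0.00337), and that of Clec4a3 was 0.72 ± 0.07 (adjusted p = 0.000205). Among 14 other C-type lectins tested 5 were higher and 3 lower for this difference, where 31.3% of all tested genes were called.

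Clec12a rose in the unoperated arms, where its level was low. It was at 7.81 and 7.76 FPKM in KO agonist cells against 6.02 and 5.98 FPKM in KO vehicle cells (0.33 ± 0.04, adjusted p = 6.28e-05), and at 4.41 and 4.54 FPKM in WT agonist cells against 3.26 and 2.99 FPKM in WT vehicle cells (0.41 ± 0.04, adjusted p = 1.08e-05). The change did not pass in Ex3a OVX cells, which had 75.4 and 71.9 FPKM with agonists against 77.2 and 78.3 FPKM with vehicle (-0.08, 95% interval -0.20 to 0.04, adjusted p = 0.286). It did not pass in ERKO OVX cells either, which had 18.2 and 18.1 FPKM with agonists against 19.4 and 18.4 FPKM with vehicle (-0.05, -0.17 to 0.07, adjusted p = 0.476). The ERKO OVX minus KO difference in response was -0.38 ± 0.07 (adjusted p = 0.0034).

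**Figure D2:**
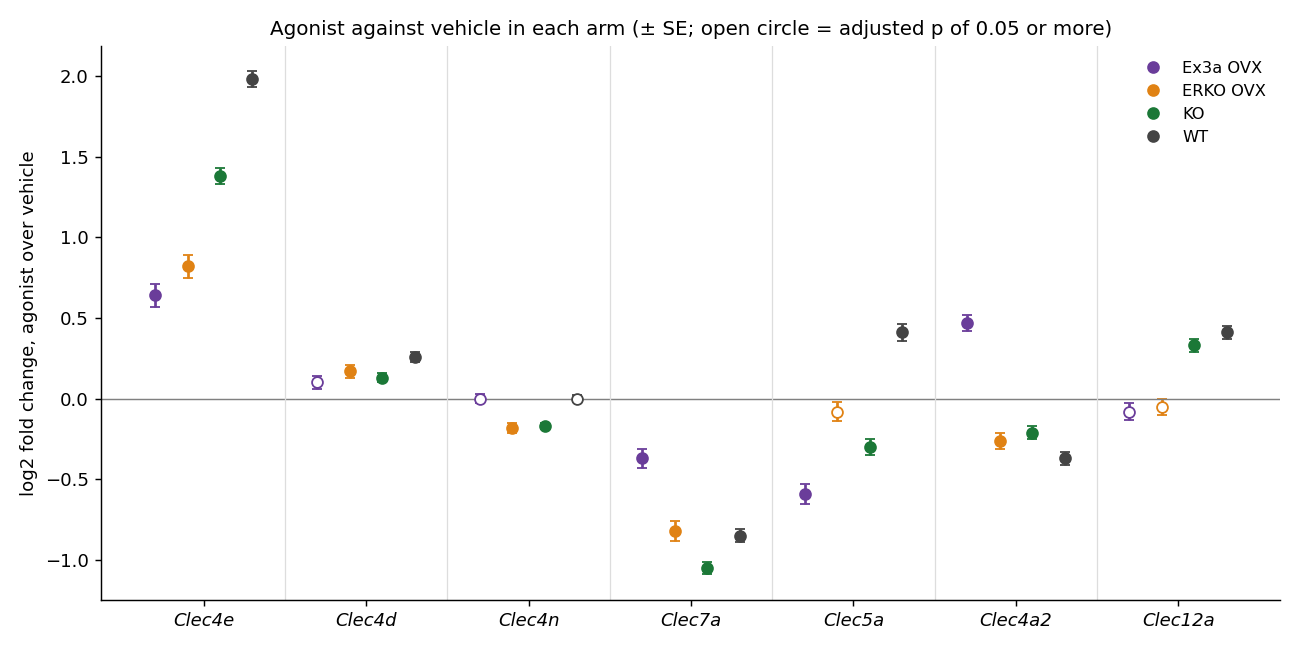
Log2 fold change of agonist over vehicle (y axis) for each receptor (x axis) in 4 arms; bars are ± SE from limma and open circles have an adjusted p of 0.05 or more. Clec4e lies between 0.64 and 1.98 and Clec7a between -1.05 and -0.37, while Clec5a is at 0.41 in WT and -0.30 in KO, and Clec4a2 is at 0.47 in Ex3a OVX and between -0.37 and -0.21 in the other arms.

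Tested as differences in response over all genes, 3 members were called for Ex3a OVX minus ERKO OVX as higher and 1 as lower (31.3% of genes called, 16.6% higher and 14.6% lower). For ERKO OVX minus KO 2 members were called, both as lower (23.8% of genes called, 11.3% higher and 12.4% lower). Clec7a (0.29) and Clec5a (0.27) were added as higher without KO vehicle replicate 2, and also with TPM scaling (0.33 and 0.32). For KO minus WT 3 members were called, all as lower (6.96% of genes called, 2.30% higher and 4.66% lower). Clec4a2 was added there as higher with TPM scaling (0.24, adjusted p = 0.0214), with all 16 libraries (0.16, 0.0446) and without KO agonist replicate 1 (0.21, 0.0369). Besides those given above, Clec4n was called at 0.18 ± 0.05 for Ex3a OVX minus ERKO OVX (adjusted p = 0.0181), which became 0.01 with TPM scaling (adjusted p = 0.853) and was not called with plain empirical Bayes (adjusted p = 0.0777). It was also called at -0.17 ± 0.03 for KO minus WT (adjusted p = 0.0147). That call was lost without WT vehicle replicate 1 (adjusted p = 0.0552), WT vehicle replicate 2 (0.0742) or KO vehicle replicate 1 (0.0599). It was also lost with TPM scaling (-0.08, adjusted p = 0.132), no filter on low genes (0.0612) and plain empirical Bayes (0.0845). The background for KO minus WT also changed, with 790 genes called and 431 to 651 when any 1 library was left out, the fewest without WT vehicle replicate 1.

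The second question was how KO differed from WT cells, the ERα short from the wild-type receptor in unoperated mice. In vehicle cells 3 members were higher and 4 lower (60.3% of genes called, 31.5% higher and 28.7% lower), and in agonist cells 1 was higher and 5 lower (54.8% of genes called, 27.2% higher and 27.6% lower). The median of the 7 was -0.15 with vehicle and -0.25 with agonists, and that of all genes 0.01 and 0.00. Clec4n was lower in KO, at 1422 and 1406 FPKM in KO against 2615 and 2587 FPKM in WT vehicle cells (-0.88 ± 0.02, adjusted p = 2.06e-09), and -1.05 ± 0.02 with agonists (adjusted p = 6.84e-10). Clec4d was lower as well, by 0.52 on the log2 scale with vehicle (adjusted p = 2.55e-07), and its difference with agonists was -0.64 ± 0.03 (adjusted p = 7.2e-08). Clec4a2 was lower at -0.41 ± 0.04 with vehicle and -0.25 ± 0.04 with agonists (adjusted p = 8.4e-06 and 0.000321).

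Clec12a went the other way, at 6.02 and 5.98 FPKM in KO against 3.26 and 2.99 FPKM in WT vehicle cells (0.76 ± 0.04, adjusted p = 1.4e-07; 0.68 ± 0.04 with agonists, adjusted p = 3.66e-07). Clec5a was higher in KO with vehicle, at 0.69 ± 0.05 (adjusted p = 8.08e-07), whereas with agonists KO and WT libraries overlapped (-0.02, 95% interval -0.12 to 0.08, adjusted p = 0.708). Clec4e was higher in KO with vehicle (0.41 ± 0.05, adjusted p = 9.47e-05) and lower with agonists (-0.20 ± 0.05, adjusted p = 0.0104). The Clec4e agonist call was lost without WT agonist replicate 1 (adjusted p = 0.0727) or KO agonist replicate 2 (0.0853), with TPM scaling (-0.10, 0.172) and with no filter on low genes (0.0553). Clec7a was lower in KO with agonists (-0.36 ± 0.04, adjusted p = 8.74e-05) and with vehicle (-0.15 ± 0.04, adjusted p = 0.013), the vehicle call being lost without WT vehicle replicate 2 (adjusted p = 0.0783) or KO vehicle replicate 2 (0.111) and with no filter (0.0597). Beside these differences, 8 of the 10 macrophage genes tested were lower in KO than in WT with vehicle and 8 with agonists. Of all tested genes 28.7% and 27.6% were lower. The complement gene C1qa was at 3.09 to 3.45 FPKM in KO against 110 to 115 FPKM in WT vehicle cells. The other 2 macrophage genes were higher with each treatment, and Marco was at 14.2 to 14.5 FPKM in KO against 5.13 to 5.63 FPKM in WT vehicle cells. The summed macrophage list was at 655 to 660 FPKM in KO against 1133 to 1159 FPKM in WT vehicle cells. With agonists it was at 1040 to 1061 FPKM against 1420 to 1447 FPKM, with no listed gene under 0.5 FPKM. Of 11 conventional dendritic cell genes 8 were higher in KO and 2 lower with vehicle, and 6 and 3 with agonists. Of 12 neutrophil genes 4 were higher and 5 lower with vehicle, and 3 and 4 with agonists. The neutrophil sum was 216 to 226 FPKM in KO against 358 to 383 FPKM in WT vehicle cells. Within it S100a8 (71.7 to 80.1 against 44.8 to 57.0 FPKM) and S100a9 (16.4 to 19.5 against 1.15 to 5.62 FPKM) were higher in KO. Lcn2 was lower in KO (14.6 to 15.8 against 21.1 to 25.9 FPKM). Of 9 monocyte genes 4 were higher and 4 lower with vehicle, and 3 and 5 with agonists. Of 4 plasmacytoid genes 0 were higher, and 1 was lower with vehicle and 3 with agonists. Of 9 eosinophil, basophil and mast cell genes 1 was higher with vehicle and 3 with agonists, and 0 were lower. Of 4 T, NK and B cell genes 1 was higher with each treatment and 0 were lower. The part of these lists in the receptor differences was not tested.

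The third comparison set Ex3a OVX against ERKO OVX cells, ERα null against ERα short after ovariectomy and estradiol. With vehicle 2 members were higher and 3 lower (55.3% of genes called, 29.3% higher and 26.1% lower), and with agonists 3 were higher and 4 lower (62.8%, with 32.1% higher and 30.6% lower). Here too each arm is 1 averaged sample per treatment. Clec12a was higher in Ex3a OVX, at 77.2 and 78.3 FPKM in Ex3a OVX against 19.4 and 18.4 FPKM in ERKO OVX vehicle cells (1.99 ± 0.05, adjusted p = 3e-09) and 1.96 ± 0.05 with agonists (adjusted p = 3.3e-09), the error again being that of the WT and KO groups. Only 0.714% of tested genes had a larger absolute difference with vehicle. Clec4e was lower in Ex3a OVX, at 247 and 249 FPKM against 543 and 547 FPKM in ERKO OVX vehicle cells (-1.13 ± 0.07, adjusted p = 1.13e-06), and -1.31 ± 0.07 with agonists (adjusted p = 3.76e-07).

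Its partner Clec4d was higher in Ex3a OVX, at 0.35 ± 0.04 with vehicle (adjusted p = 5.62e-05) and 0.28 ± 0.04 with agonists (adjusted p = 0.000191), a value that was 0.10 with TPM scaling (adjusted p = 0.0516). The Clec4e to Clec4d ratio was 0.268 in Ex3a OVX against 0.75 in ERKO OVX vehicle cells and 0.389 against 1.18 with agonists. Clec4n was lower (-0.43 ± 0.03 with vehicle, adjusted p = 2.67e-06, and -0.26 ± 0.03 with agonists, 9.62e-05). Clec7a was lower at -0.67 ± 0.06 with vehicle (adjusted p = 1.21e-05) and -0.22 ± 0.06 with agonists (0.0116, and 0.053 with no filter on low genes). Clec4a2 and Clec5a did not pass with vehicle (0.00, 95% interval -0.12 to 0.12, and 0.01, -0.13 to 0.16), with overlapping libraries for both. With agonists Clec4a2 was higher (0.73 ± 0.05, adjusted p = 1.7e-06) and Clec5a lower (-0.50 ± 0.06, adjusted p = 9.4e-05). Of all tested genes 29.3% were higher in Ex3a OVX and 26.1% lower with vehicle, and 32.1% and 30.6% with agonists. Monocyte and macrophage genes also differed. Among 9 monocyte genes 6 were higher in Ex3a OVX and 3 lower with each treatment. Among 10 macrophage genes 8 were higher and 2 lower with vehicle, and 8 and 1 with agonists. The summed FPKM with vehicle was 4381 to 4420 against 3190 to 3212 for the monocyte list and 2899 to 2907 against 2219 to 2240 for the macrophage list. With agonists it was 3658 to 3703 against 2811 to 2833 for monocytes and 4118 to 4166 against 2683 to 2689 for macrophages, with the monocyte gene F13a1 under 0.5 FPKM in both arms. The neutrophil list was lower in sum, at 994 to 1000 FPKM in Ex3a OVX against 2456 to 2460 FPKM in ERKO OVX vehicle cells. With agonists it was at 1763 to 1765 FPKM against 2454 to 2471 FPKM. Of its 12 tested genes 4 were higher and 4 lower with vehicle, and 3 and 4 with agonists. Lcn2, S100a8 and S100a9 made up most of each neutrophil sum, and Ly6c2 most of each monocyte sum. Of 9 eosinophil, basophil and mast cell genes 0 were higher and 7 lower with each treatment, with the lower library of each pair summing to 59.6 FPKM against 122 FPKM with vehicle and 38.8 FPKM against 92.5 FPKM with agonists, and Epx was under 0.5 FPKM in both arms. All 4 tested T, NK and B cell genes were higher with each treatment, with the higher library of each pair summing to 52.4 FPKM against 21.0 FPKM with vehicle and 65.2 FPKM against 17.6 FPKM with agonists. The plasmacytoid list had 2 of 4 genes higher with vehicle and 3 with agonists, and none lower. Among 11 conventional dendritic cell genes 4 were higher and 6 lower with vehicle, and 4 and 5 with agonists. The part of these lists in the result was not tested.

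The last comparison set ERKO OVX against KO cells, both ERα short, in which surgery, pellet and library set go together. All 7 members were higher in ERKO OVX with vehicle and with agonists, except that Clec5a with vehicle turned to -0.15 (adjusted p = 0.0326) with TPM scaling. The background was wide, with 80.9% of genes called with vehicle (40.9% higher, 40.0% lower) and 78.7% with agonists (40.1% higher, 38.6% lower). The median of the 7 was 1.38 with vehicle and 1.12 with agonists, and that of all genes 0.01 and 0.01. TPM scaling moved the median of all genes to -0.35 and -0.27.

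Clec4e was at 543 and 547 FPKM in ERKO OVX against 107 and 96.9 FPKM in KO vehicle cells (2.41 ± 0.06, 5.32-fold, adjusted p = 6.07e-10), and 1.86 ± 0.06 with agonists (3.8e-09). Clec4d was at 730.2 and 722 FPKM in ERKO OVX against 186 and 182 FPKM in KO vehicle cells (1.97 ± 0.03, adjusted p = 4.61e-11), and 2.01 ± 0.03 with agonists (5e-11). Only 1.09% and 2.04% of tested genes had a larger absolute difference with vehicle than Clec4e and Clec4d. The inhibitory receptors were higher too, Clec12a at 1.50 ± 0.05 with vehicle and 1.12 ± 0.05 with agonists, and Clec4a2 at 1.38 ± 0.05 and 1.33 ± 0.05. Clec4n (0.67 and 0.66), Clec7a (0.73 and 0.96) and Clec5a (0.26 and 0.49) differed less, and between 12.2% and 64% of tested genes had a larger absolute difference than these.

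**Figure D3:**
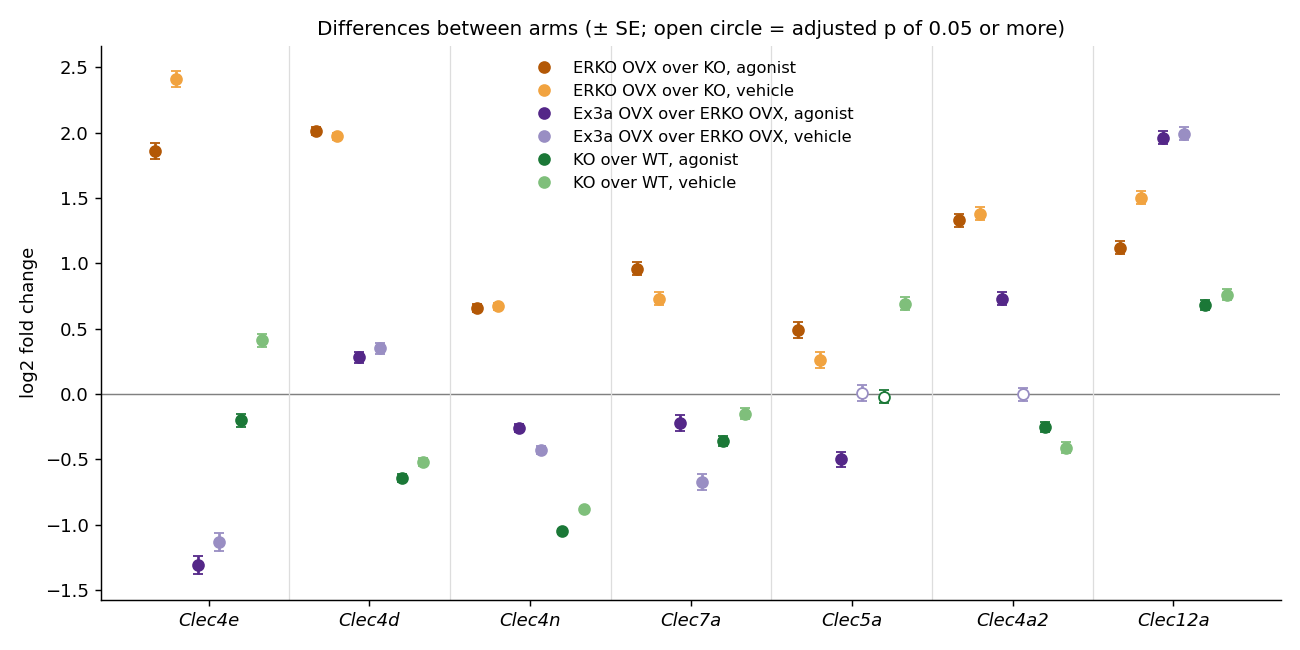
Log2 fold change (y axis) between arms at the same treatment for each receptor (x axis), with ± SE from limma and open circles for an adjusted p of 0.05 or more; orange is ERKO OVX over KO, purple Ex3a OVX over ERKO OVX and green KO over WT, dark for agonist and light for vehicle. All orange points lie above 0 (Clec5a with vehicle is at -0.15 with TPM scaling), and Clec12a is above 0 in all 6 comparisons.

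Markers of other cell types also differed in this comparison. Of all tested genes 40.9% were higher and 40.0% lower with vehicle, and 40.1% and 38.6% with agonists. Of 12 neutrophil genes tested 9 were higher and 3 lower in ERKO OVX than in KO with each treatment. Among 9 monocyte genes 7 were higher and 2 lower with each treatment. The summed neutrophil list (14 genes in the table) was at 2456 to 2460 FPKM in ERKO OVX against 216 to 226 FPKM in KO vehicle cells, and 2454 to 2471 FPKM against 313 to 329 FPKM with agonists. The monocyte list was at 3190 to 3212 FPKM against 478 to 480 FPKM with vehicle, and 2811 to 2833 FPKM against 413 to 431 FPKM with agonists. In ERKO OVX vehicle cells Lcn2 (1085 to 1090 FPKM), S100a8 (924 to 926 FPKM) and S100a9 (289 to 292 FPKM) made up most of the neutrophil sum. Ngp was at 3.73 to 4.09 FPKM in these cells and Ltf at 1.24 to 1.27 FPKM. Ly6c2 (2729 to 2747 FPKM) made up most of their monocyte sum. Retnlg and Cxcr2, which mark mature neutrophils, stayed under 0.5 FPKM in every group, as did the monocyte gene F13a1. Of 11 conventional dendritic cell genes tested 8 were lower in ERKO OVX and 3 higher with each treatment. The list's sum was 9332 to 9389 FPKM in ERKO OVX against 6651 to 6741 FPKM in KO vehicle cells. Cd74 made up most of that sum, at 7177 to 7198 FPKM in ERKO OVX and 4203 to 4204 FPKM in KO vehicle cells. Of 10 macrophage genes 5 were higher and 3 lower with vehicle and 6 and 2 with agonists, with sums of 2219 to 2240 FPKM in ERKO OVX against 655 to 660 FPKM in KO vehicle cells and 2683 to 2689 FPKM against 1040 to 1061 FPKM with agonists. Of 9 eosinophil, basophil and mast cell genes 6 were higher and 2 lower with vehicle and 7 and 1 with agonists, with sums of 122 to 127 FPKM against 10.4 to 11.4 FPKM and 92.5 to 96.3 FPKM against 7.20 to 8.17 FPKM. All 4 tested T, NK and B cell genes were higher with each treatment, with the higher library of each pair summing to 21.0 FPKM against 1.83 FPKM with vehicle and 17.6 FPKM against 1.95 FPKM with agonists. The plasmacytoid list had 3 of 4 genes higher and 0 lower with vehicle and 2 and 1 with agonists. The part of these cells in the receptor levels was not tested.

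The adaptors that the receptors need were measured alongside. Of 16 listed signalling genes 15 were tested. With agonists 5 rose and 4 fell in Ex3a OVX, 5 and 3 in ERKO OVX, 7 and 5 in KO, and 9 and 4 in WT, where 37.3%, 37.5%, 51.3% and 57.9% of all tested genes were called. Malt1, the protease of the Card9 complex, rose most in 3 arms, at 0.85 ± 0.06 in ERKO OVX, 0.90 ± 0.04 in KO and 1.13 ± 0.04 in WT. It averaged 43.4 FPKM in Ex3a OVX agonist cells against 34.3 FPKM in Ex3a OVX vehicle cells, and 119 FPKM against 65.5 FPKM in ERKO OVX. The Malt1 response differed by -0.52 ± 0.09 for Ex3a OVX minus ERKO OVX (adjusted p = 0.00208). Syk, the kinase downstream of the activating receptors, rose by 0.43 ± 0.03 in Ex3a OVX and 0.37 ± 0.03 in ERKO OVX. It averaged 200 FPKM with agonists against 169 FPKM with vehicle in KO, and 208 FPKM against 170 FPKM in WT. Lyn, a Src-family kinase, rose by 0.44 ± 0.04 in Ex3a OVX and 0.43 ± 0.03 in KO. It averaged 58.2 FPKM with agonists against 49.4 FPKM with vehicle in ERKO OVX, and 52.9 FPKM against 42.2 FPKM in WT. Tyrobp fell by 0.31 on the log2 scale in Ex3a OVX, by 0.26 in ERKO OVX and by 0.28 in KO. In WT it averaged 715 FPKM with agonists against 825 FPKM with vehicle. Among the other genes named by size, Src rose by 0.56 in WT, Vav2 fell by 0.32 in KO and by 0.29 in WT, Vav3 fell by 0.28 in Ex3a OVX and by 0.30 in WT, and Plcg2 fell by 0.20 in ERKO OVX. Log2 changes are given only where the gene was among the 2 largest in its direction. Src also averaged 61.1 FPKM with agonists against 49.9 FPKM with vehicle in ERKO OVX, and 60.3 FPKM against 49.5 FPKM in KO.

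Between arms, Fcer1g averaged 1833 FPKM in ERKO OVX against 515 FPKM in KO vehicle cells (1.83 ± 0.03, adjusted p = 1.88e-11; 1.50 ± 0.03 with agonists), and Hcst, a second adaptor of Clec5a, was higher by 1.62 and 1.80. In the same comparison Card9 was lower at -1.04 ± 0.06 with vehicle and -0.92 ± 0.06 with agonists, and the exchange factor Vav2 at -1.43 and -1.11. Of the 15 genes 8 were higher and 5 lower with vehicle, and 8 and 4 with agonists (80.9% and 78.7% of all tested genes called). In Ex3a OVX against ERKO OVX, 9 were higher and 3 lower with vehicle and 8 and 6 with agonists (55.3% and 62.8% of all called). Tyrobp was higher (0.79 ± 0.04 and 0.74 ± 0.04), as was Lyn (0.58 and 0.78), while Malt1 was lower (-0.91 ± 0.06 and -1.44 ± 0.06). In KO against WT, 4 were higher and 8 lower with vehicle and 2 and 12 with agonists (60.3% and 54.8% of all called). Hcst was lower (-0.49 and -0.68), Tyrobp was lower with vehicle (-0.39) and averaged 519 FPKM in KO against 715 FPKM in WT agonist cells, and Vav2 (0.41 and 0.38) and Card9 (0.13 and 0.17) were higher. The responses of 3 signalling genes were higher and of 3 lower for Ex3a OVX minus ERKO OVX and for ERKO OVX minus KO, while 0 were higher and 3 lower for KO minus WT. Of all tested genes 31.3%, 23.8% and 6.96% were called, in that order. Fcer1g was at 0.40 for Ex3a OVX minus ERKO OVX and -0.33 for ERKO OVX minus KO, and Src was at -0.28 for KO minus WT.

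**Figure D4:**
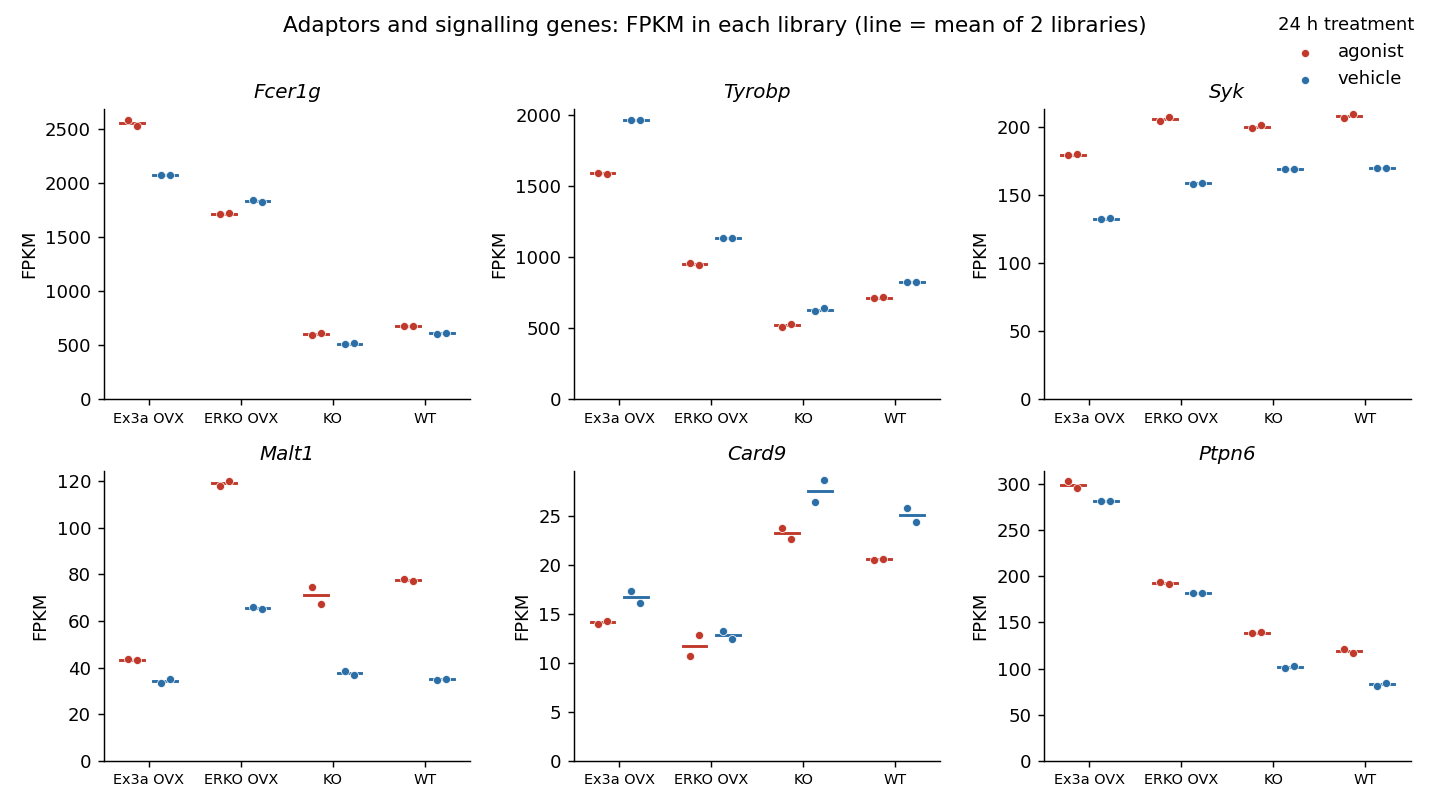
FPKM (y axis, linear, from 0) of 3 adaptor and kinase genes, 2 genes of the Card9 complex and the phosphatase gene Ptpn6 in each of 16 libraries, by arm (x axis) and treatment (red agonist, blue vehicle); points are libraries and bars are means of 2. Fcer1g lies at 1712 to 2577 FPKM in OVX libraries and 508 to 680 FPKM in unoperated libraries, and Card9 is lower in the OVX arms.

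All 8 genes for inhibitory phosphatases and other negative regulators were tested. With agonists 1 rose and 2 fell in Ex3a OVX, 3 and 3 in ERKO OVX, 4 and 2 in KO, and 5 and 2 in WT. Of all tested genes 37.3%, 37.5%, 51.3% and 57.9% were called, in that order of arms. Ptpn6, which encodes the SHP-1 phosphatase used by the inhibitory receptors, rose by 0.44 ± 0.03 in KO and 0.52 ± 0.03 in WT. Inpp5d (SHIP-1) fell by 0.17 in Ex3a OVX, by 0.22 in ERKO OVX, by 0.39 in KO and by 0.53 in WT. Dok3, an inhibitory adaptor, fell by 0.36 in ERKO OVX, by 0.50 in KO and by 0.49 in WT. Ptpn6 was higher in ERKO OVX than in KO (0.83 and 0.48) and higher in Ex3a OVX than in ERKO OVX (0.62 and 0.63), vehicle first. The ubiquitin ligase genes Cblb (-1.65 and -1.49) and Cbl (-1.23 and -1.12) were lower in ERKO OVX than in KO. The counts were 3 higher and 3 lower with vehicle and 2 and 5 with agonists for ERKO OVX against KO (80.9% and 78.7% of all tested genes called). They were 3 and 2 then 4 and 4 for Ex3a OVX against ERKO OVX (55.3% and 62.8%). For KO against WT they were 5 and 1 then 4 and 2 (60.3% and 54.8%), and Cblb (0.50 and 0.46) and Dok1 (0.38 and 0.32) were higher. For KO minus WT 0 of the 8 responses were called different, where 6.96% of all tested genes were. For Ex3a OVX minus ERKO OVX 1 was called higher and 2 lower, where 31.3% of all tested genes were called. For ERKO OVX minus KO 2 were called higher and 4 lower, where 23.8% of all tested genes were called.

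Of 27 other C-type lectins 14 reached the test. With agonists 5 rose and 4 fell in Ex3a OVX, 3 and 5 in ERKO OVX, 3 and 8 in KO, and 5 and 8 in WT. The shares of all tested genes called were 37.3%, 37.5%, 51.3% and 57.9% in that order. Clec4a1, a relative of Clec4a2, rose in all 4 arms, by 0.66 ± 0.05 in Ex3a OVX, 0.42 ± 0.05 in ERKO OVX, 1.57 ± 0.04 in KO and 1.31 ± 0.04 in WT. The mannose receptor gene Mrc1 fell in all 4, by 1.24, 0.72, 1.06 and 0.89 on the log2 scale in the same order. Clec4a1 averaged 189 FPKM in ERKO OVX against 16.3 FPKM in KO vehicle cells, the largest difference of the list (3.46 ± 0.04, adjusted p = 5.7e-12). Colec12 (-2.66 with vehicle) and Clec2d (-2.34), a ligand for an NK cell receptor, were lower there, with 5 genes higher and 8 lower. Mgl2, a galactose-binding lectin, averaged 24.3 FPKM in KO against 170 FPKM in WT vehicle cells (-2.76 ± 0.04, adjusted p = 2.1e-11), with 5 genes higher and 4 lower. In Ex3a OVX against ERKO OVX vehicle cells 9 were higher and 3 lower, led by Mrc1 (1.83) and Mgl2 (-1.30). With vehicle, 80.9% of all tested genes were called for ERKO OVX against KO, 60.3% for KO against WT and 55.3% for Ex3a OVX against ERKO OVX.

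Across the 8 group means, the tested genes with the highest Pearson r to each receptor on log2(FPKM + 1) were Klhdc10 (0.986) for Clec4e, Ncstn (0.997) for Clec4d, Mgl2 (0.991) for Clec4n, Tbc1d2 (0.981) for Clec7a, Hddc3 (0.994) for Clec4a2, Ifi35 (0.998) for Clec12a and Lmf2 (0.946) for Clec5a. Further genes among the 3 most alike were Slc1a2 and Smap1 for Clec4e, Mfsd5 for Clec4d, Tanc2 and Dleu2 for Clec4n, Mrto4 and Tspan31 for Clec4a2, Zc3hc1 and Gm4951 for Clec12a, and Lzts3 and Abcb1b for Clec5a. For Clec7a they were Rnh1 and a row whose symbol had been turned into a date. The 8 means share arms and library sets, and 11346 genes were searched, so these values describe likeness of pattern only.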

How the data were processed

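The deposited table gives FPKM per gene and library, from paired-end reads per the labels' protocols. Among the tools, the submitters' processing notes list STAR, HTSeq, cutadapt, FastQC and DESeq2, with mm10 as the build. Which program computed FPKM is not stated in them. For 5 libraries (ERKO OVX agonist replicate 2, KO agonist replicate 2, KO vehicle replicate 2, WT agonist replicate 1 and WT vehicle replicate 1) the labels say that the deposited raw data lack the second read, which was damaged; whether FPKM used it is not stated. The labels speak of triplicates, and 2 libraries per group were analysed here. FPKM keeps no fragment counts, so depth was inferred from how low values step in 3315 genes with 1 transcript. Only 48.9 to 59.5% of low values lay within 0.1 of a whole fragment, so no count test was run. The sums per library were 481738 to 522287 FPKM (unoperated) and 612322 to 696321 FPKM (OVX).

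From these values, log2(FPKM + 1) was fitted with limma 3.58.1 (R 4.3.3; robust, trended empirical Bayes) with 1 coefficient per group over 12 samples (4 residual degrees of freedom). OVX pairs were averaged, so all residual spread comes from the WT and KO groups. Genes reaching 1 FPKM in 2 libraries were tested (11346, or 11345 where KO agonist enters), with Benjamini-Hochberg adjustment over all of them and a threshold of 0.05. Left out were 1233 rows of small RNAs, and 5 zeros in genes above 0 elsewhere were taken as missing. The members and gene lists were chosen with earlier results of these data known. Beyond the 7 members, the text names the 2 called genes of each list with the largest change in each direction, abridged for some comparisons, the 3 genes most like each member, and Esr1; some genes that this rule selects are not reported here. The levels given for Clec4a4, Ly6c2, C1qa, Marco, Itgax, Cd74, Flt3, Xcr1, Zbtb46, H2-Ab1, Lcn2, S100a8, S100a9, Ngp and Ltf were chosen after their values were seen. So were the 6 genes of the plot of signalling genes. Adgre1 and Siglecf were read from rows of older names, and Ly6g had none. Coordinates and promoters are RefSeq's (GRCm38.p6).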

Additional observations from a re-analysis of the deposited data

Results flagged for a closer look

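Some receptors differed in agonist response between arms by limma's test of the difference itself. For Ex3a OVX minus ERKO OVX these were Clec4n (0.18), Clec7a (0.45), Clec4a2 (0.73) and Clec5a (-0.51), in log2 units, where 31.3% of all genes were called. For ERKO OVX minus KO they were Clec4e (-0.56) and Clec12a (-0.38), where 23.8% of all genes were called. For KO minus WT they were Clec4e (-0.61), Clec4n (-0.17) and Clec5a (-0.71), where 6.96% of all genes were called. Neither Clec4n call held with TPM scaling (adjusted p = 0.853 and 0.132) or with plain empirical Bayes (0.0777 and 0.0845). The Clec5a response went in opposite directions in KO (-0.30) and WT (0.41) cells, and the Clec4a2 response in Ex3a OVX (0.47) and ERKO OVX (-0.26) cells. Differences between an OVX and an unoperated arm cannot be told apart from surgery, pellet and library set.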

How the results depend on the processing

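Counts of members called kept within 1.5 times their value in every alternative except for differences in response. For KO minus WT 6 members were called with all 16 libraries as separate samples, against 3, and 2 to 4 without any 1 library. For ERKO OVX minus KO 4 were called with all 16 libraries and 4 with TPM scaling, against 2, and 2 to 4 without any 1 library, the 4 being without KO vehicle replicate 2. With TPM scaling, values that changed sign were Clec12a (0.03) and Clec5a (0.01) for the ERKO OVX response, Clec5a for KO against WT with agonists (0.07) and for ERKO OVX against KO with vehicle (-0.15), and Clec4n (0.08) and Clec4a2 (0.04) for ERKO OVX minus KO. Without 1 library, values near 0 changed sign for Clec5a KO against WT with agonists (-0.06 to 0.02), Clec4n ERKO OVX minus KO (-0.04 to 0.01), Clec5a Ex3a OVX against ERKO OVX with vehicle (-0.01 to 0.04) and Clec12a Ex3a OVX minus ERKO OVX (-0.06 to 0.01). The cause was not tested.

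Over all genes, 790 were called for KO minus WT, 404 with no filter on low values, 1231 with TPM scaling and 431 to 651 without any 1 library; for Ex3a OVX minus ERKO OVX 3546 were called and 5534 with all 16 libraries. TPM scaling moved the split of higher and lower calls to 2056 and 7452, against 4643 and 4534, for ERKO OVX against KO with vehicle, and to 2338 and 6855, against 4549 and 4377, with agonists. It moved the split to 2072 and 5323, against 3643 and 3477, for Ex3a OVX against ERKO OVX with agonists, and to 4814 and 1947, against 3086 and 3136, for KO against WT with agonists. For the responses it gave 1206 and 2891, against 2158 and 2073, in Ex3a OVX, 3317 and 1273, against 2080 and 2177, in ERKO OVX, and 2107 and 4330, against 3499 and 3071, in WT. For differences in response it gave 679 and 3392, against 1887 and 1659 (Ex3a OVX minus ERKO OVX), 2386 and 767, against 1287 and 1410 (ERKO OVX minus KO), and 965 and 266, against 261 and 529 (KO minus WT). It moved the median of all genes to -0.14 for Ex3a OVX against ERKO OVX with agonists and to -0.13 for their difference in response. Library numbers share only a number (r of -0.22 to 0.12 between unoperated groups), and the replicate block left every call of a member as it was (6 members for the WT response, 3 for KO minus WT), with 653 genes called for KO minus WT. The 2 libraries per group, with OVX pairs counted as 1 sample, limit every statement on spread.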
